A study of Mus musculus with 8 samples.

Results

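The whole embryonic mouse lung was compared between embryonic day 14 (E14) and embryonic day 17 (E17). The comparison rests on 2 of the 8 libraries of the series, 1 whole lung library at each stage. Both came from C57BL/6 embryos of wildtype genotype, and the labels give their source as homogenate of the whole lung and their content as total mRNA. The treatment label of both, like that of every other library, reads that TRAP labelling was induced with tamoxifen, so no library of the series is free of tamoxifen. TRAP (translating ribosome affinity purification) recovers mRNA from tagged ribosomes of a chosen cell type. The other 6 libraries are Sox9-TRAP libraries, 1 at E14, 1 at E17, 2 at E16 from the wild type and 2 at E16 from a Sox9 mutant. The extraction label of the whole lung libraries names the ribosome pulldown too, and the design text calls the E14 reference a supernatant, while its own label calls it homogenate. Col3a1, a fibrillar collagen of mesenchymal cells, had 332 FPKM in whole lung and 9.48 in TRAP at E14, and 362 against 11.0 at E17, so both whole lung libraries held mesenchymal RNA at a level that the TRAP libraries did not. The sources used here do not say how many embryos went into a library.

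With 1 library per stage there is no spread between replicates and no test of any difference below. FPKM scales fragments to transcript length and to the mapped fragments of the library, so levels can be compared between genes. Differences are given as log2(FPKM + 1) at E17 minus that at E14, which understates the change of genes with low levels. Each deposited table held 24487 records, of which 12449 (50.8%) averaged 1 FPKM or more in the 2 libraries and spanned at least 200 bases, and these were kept. A record is called higher or lower where its difference reached 2-fold. The FPKM of records of at least 200 bases summed to 580611 at E14 and 626734 at E17, and the deposited bounds imply 21500523 and 16227391 fragments. Those bounds describe counting error within a library and not the difference between embryos. As a scale for that, 0.136% of records differed at least 2-fold between the 2 wild-type E16 TRAP libraries and 0.389% between the 2 mutant ones, which are of another material. In an organ sampled whole, more cells of a type and more RNA per cell cannot be told apart.

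Between these stages the mouse lung passes from branching of its airways toward the formation of distal saccules. The epithelium at the tips of the tree turns from progenitors into alveolar type 1 cells, the flat cells of gas exchange, and alveolar type 2 cells, which make surfactant. Around it the mesenchyme lays down elastic matrix, the capillary bed expands, and airway cells become secretory or ciliated. Meanwhile red cells of yolk sac origin, which carry embryonic globins, are replaced in the circulation by cells made in the fetal liver.

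At E17, 597 of 12449 records (4.80%) were at least 2-fold higher and 149 (1.20%) at least 2-fold lower. Of the calls, 80.0% were higher, or 71.9% (514 against 201) with both libraries scaled to a common total, and the median difference of all records was -0.01. Past 4-fold there were 103 higher and 15 lower records, and past 8-fold 28 and 7. Named in order, the 10 most increased genes were Sftpc, Tmem213, Clic3, Napsa, Ctsh, G0s2, Ndufa4l2, Hopx, Dynlrb2 and Sftpb. The 10 most decreased were Hbb-y, Hbb-bh1, Hba-x, Hsd3b6, Crabp2, Col2a1, Hmga2, Ngfr, Pcp4 and Peg10. Surfactant genes thus led one end of the ranking and embryonic globins the other. For all 597 and all 149 of these records the deposited bounds of the stages did not overlap, but neither did those of 59.9% of all kept records, so this criterion removed no call.

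**Figure D1:**
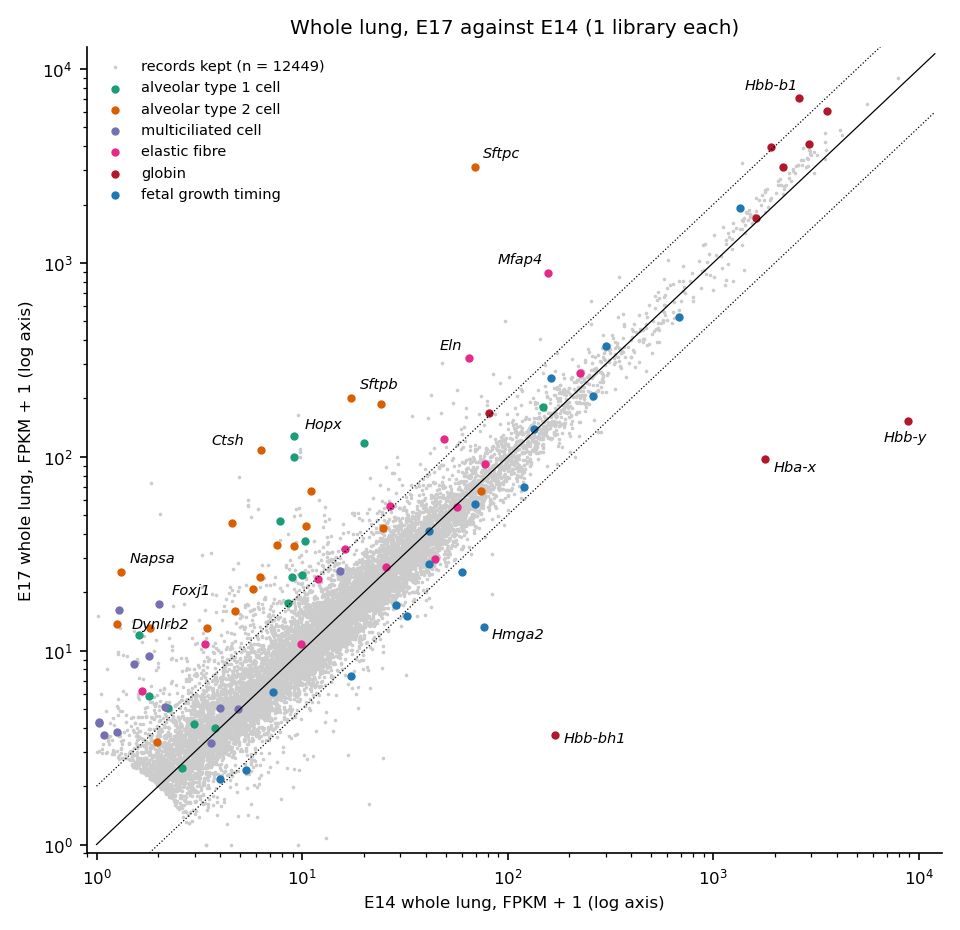
Each point is 1 of the 12449 kept records, with FPKM + 1 at E14 across and at E17 up, both on log axes. The solid line marks equal levels and the dotted lines 2-fold differences. Colours mark members of 6 gene lists. Sftpc (68.4 to 3133 FPKM) lies far above the diagonal and Hbb-y (8905 to 151 FPKM) far below it.

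Genes of the alveolar type 2 cell had the highest median of all lists, though multiciliated genes had a higher one with a pseudocount of 0.1 (3.25 against 2.35) and with a mean of at least 5 FPKM (3.11 against 2.40). Of 19 kept members out of 22, 16 were at least 2-fold higher and none lower, with a median of 2.2 against -0.01 over all records. Sftpc, which encodes surfactant protein C (chromosome 14, 70520942 to 70524081, mm10), had 68.4 FPKM at E14 (bounds 64.6 to 72.1) and 3133 at E17 (3103 to 3163). That is a 45.8-fold ratio of FPKM and a log2 difference of 5.50. By level the gene moved from rank 1175 to rank 31 among records of at least 200 bases. Sftpb, encoding surfactant protein B, had 16.3 and 201 FPKM (3.54). Napsa and Ctsh encode proteases that process surfactant proproteins, and they had 0.321 and 24.6 FPKM (4.27) and 5.33 and 108 FPKM (4.1). Abca3, which loads lipid into the lamellar bodies that store surfactant, had 4.75 and 19.7 FPKM (1.85), and the lamellar body protein gene Lamp3 had 0.829 and 12.2 (2.85). The phosphate transporter gene Slc34a2 had 0.264 and 12.7 FPKM (3.44), and the mucin gene Muc1 had 3.55 and 44.4 (3.32). Sfta2 (23.3 and 186 FPKM), Dram1 (10.1 and 65.5), Lgi3 (6.59 and 34.0), Cebpa (9.51 and 42.8), Cxcl15 (5.26 and 23.02), Sftpa1 (2.43 and 12.1) and Cpm (3.70 and 15.0) were higher by 1.76 to 2.94. Lyz2, a lysozyme gene that macrophages also express, had 8.09 and 33.6 FPKM (1.93). The 3 kept members within 2-fold were Sftpd (0.979 and 2.39 FPKM), Lpcat1 (23.7 and 42.0) and Fabp5 (72.9 and 65.4). Chil1, S100g and Hc stayed under 1 FPKM in both libraries. Summed over the list, the level was 267 FPKM at E14 and 4080 at E17, of which Sftpc alone made 3133.

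Alveolar type 1 genes were also higher, by smaller amounts. Of 15 kept members out of 17, 11 were at least 2-fold higher and none lower, with a median of 1.41. Hopx, a homeodomain-only protein gene, had 8.17 FPKM at E14 and 128 at E17 (3.81), and Ager, the receptor for advanced glycation end products, had 8.18 and 98.3 (3.44). Clic5 (0.612 and 11.1 FPKM, 2.91), Emp2 (6.79 and 45.8, 2.59) and the tight junction gene Cldn18 (19.02 and 117, 2.56) followed. Pdpn, encoding podoplanin, had 8.97 and 23.5 FPKM (1.30). Gprc5a, Lmo7, Cav2, Scnn1g and Akap5 were higher by 1.06 to 1.83. The members within 2-fold were Igfbp2, already at 148 FPKM at E14 and at 180 at E17, Col4a4 (1.97 and 3.18), Rtkn2 (2.75 and 2.98) and Spock2 (1.62 and 1.49). Aqp5, the water channel of mature type 1 cells, was at 0.842 and 0.644 FPKM and Col4a3 at 0.402 and 1.16, both under the filter. The type 1 programme was thus uneven among its markers at E17.

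The 250 bases before the start of Sftpb (chr6:72304360-72304609, plus strand), Sftpa1 (chr14:41131538-41131787, plus strand) and Hopx (chr5:77115124-77115373, minus strand) are shown because these alveolar genes hold CTCAAG, the core of sites bound by NKX2-1, the lung epithelial transcription factor. Sequences are from RefSeq (GRCm38.p6) and run 5′ to 3′ toward the start, with each match on either strand in capitals.
Sftpb: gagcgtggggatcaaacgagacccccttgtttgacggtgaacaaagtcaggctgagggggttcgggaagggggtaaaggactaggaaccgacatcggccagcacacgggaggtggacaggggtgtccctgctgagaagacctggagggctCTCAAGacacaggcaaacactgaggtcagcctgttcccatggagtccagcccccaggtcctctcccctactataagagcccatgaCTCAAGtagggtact
Sftpa1: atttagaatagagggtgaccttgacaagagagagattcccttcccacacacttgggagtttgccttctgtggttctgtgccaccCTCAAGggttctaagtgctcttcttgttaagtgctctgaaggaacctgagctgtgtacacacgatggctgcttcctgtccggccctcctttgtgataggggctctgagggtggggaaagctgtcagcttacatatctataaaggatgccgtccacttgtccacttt
Hopx: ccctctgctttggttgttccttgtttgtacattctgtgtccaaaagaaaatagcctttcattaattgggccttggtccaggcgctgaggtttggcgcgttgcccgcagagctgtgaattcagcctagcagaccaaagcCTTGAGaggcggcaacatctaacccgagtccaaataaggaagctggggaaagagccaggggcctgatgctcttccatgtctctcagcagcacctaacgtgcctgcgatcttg
Sftpb holds it with its first base 100 and again 15 bases before the start, Sftpa1 at 166 bases, and Hopx on the opposite strand at 112 bases. Of the 27 alveolar type 1 and type 2 members called higher, 22 had a promoter entry and 4 of these (18.2%; Sfta2 is the other) held the letters on either strand, against 13.3% of 32536 promoters of the same length. That share is near the share of all promoters, and the motif was chosen after the sequences were seen. A match is a description of the letters and not of binding. Nkx2-1 itself had 78.3 FPKM at E14 and 194 at E17 (1.30).

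Genes of the distal tip progenitor, the Sox9-positive cell from which the epithelium grows, held their level as a group. Of 18 kept members, none was at least 2-fold higher and 2 were lower, with a median of 0.08 and a summed level of 637 and 653 FPKM. Sox9 (chromosome 11, 112782210 to 112787757) had 15.0 and 16.7 FPKM, a difference of 0.14. The differentiation inhibitor gene Id2 had 104 and 150 FPKM, the FGF-responsive gene Etv5 had 83.8 and 87.5, and the ligand genes Bmp4 and Shh had 35.1 and 53.0 and 24.7 and 30.4. The 2 lower members were Hmga2, an architectural chromatin protein gene, at 75.4 and 12.3 FPKM (-2.52), and the transcription factor gene Sox11 at 25.1 and 11.7 (-1.05). Wnt7b (59.9 and 33.8 FPKM) and Mycn (23.3 and 14.2) were lower by less than 2-fold.

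In the conducting airway, 6 of 9 kept secretory and basal members of a list of 16 were higher and none lower (median 1.39). Scgb3a2, a secretoglobin gene of club cells, had 46.8 and 304 FPKM (2.67), Cyp2f2, a cytochrome of club cells, 2.21 and 9.24 (1.67), and Cldn10 11.6 and 33.3 (1.44). Scgb1a1, the best known club cell gene, was already at 173 FPKM at E14 and was at 228 at E17 (0.39). Krt15, Upk3a and Aldh1a7 made up the 6. Over all 16 members without the filter the median was 0.14. Sox2, the transcription factor of the airway, had 9.90 and 6.65 FPKM (-0.51). Of basal cell genes, Krt5 was at 0.255 FPKM and at 0 and Trp63 at 0.292 and 0.246 FPKM, whereas Krt15 had 1.75 and 7.80 (1.68).

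Most kept genes of the multiciliated cell were higher. Of 13 kept members of a list of 20, 9 were at least 2-fold higher and none lower, with a median of 1.76. Without the filter the median over the 20 was 0.76. Foxj1, the master regulator of motile cilia, had 1.01 FPKM at E14 (bounds 0.780 to 1.25) and 16.4 at E17 (15.3 to 17.6), a difference of 3.11. Ccno and Mcidas, which drive the multiplication of centrioles, had 0.793 and 8.41 FPKM (2.39) and 0.0294 and 3.27 FPKM (2.05), and Ccdc67 (also called Deup1), of the organelle from which those centrioles arise, had 0.0337 and 3.26 (2.04). Dynlrb2, a dynein subunit gene, had 0.290 and 15.2 FPKM (3.65), and Rsph1, of the radial spoke, 0.522 and 7.51 (2.48). Pifo, Fam183b and Myb were higher by 1.25 to 1.76. By contrast the axonemal motor genes were still near 0 at E17, with Dnah5 at 0.0343 FPKM, Dnah9 at 0.0584 and Dnaic2 at 0.869. Levels at E17 thus differed widely among structural genes of the cilium.

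Ccno and Mcidas are neighbours on chromosome 13, at 112987802 to 112990778 and 112993868 to 113000394. Their upstream 250 bases (chr13:112987552-112987801 and chr13:112993618-112993867, both plus strand, RefSeq, GRCm38.p6) are shown with GTTGCC, part of the site of the RFX factors of ciliated cells, in capitals.
Ccno: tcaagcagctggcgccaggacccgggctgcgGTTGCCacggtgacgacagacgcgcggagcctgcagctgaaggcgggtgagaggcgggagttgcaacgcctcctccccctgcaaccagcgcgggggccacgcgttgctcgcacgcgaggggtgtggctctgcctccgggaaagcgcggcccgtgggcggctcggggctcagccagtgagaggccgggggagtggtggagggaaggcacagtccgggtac
Mcidas: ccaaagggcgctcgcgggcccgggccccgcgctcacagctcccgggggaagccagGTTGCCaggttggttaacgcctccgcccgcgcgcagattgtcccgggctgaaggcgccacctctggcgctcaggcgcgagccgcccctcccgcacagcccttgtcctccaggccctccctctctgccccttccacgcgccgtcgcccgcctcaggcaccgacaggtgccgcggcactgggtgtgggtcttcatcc
The match begins 219 bases before the start in Ccno and 195 bases before it in Mcidas. Of the 9 higher multiciliated members, 6 had a promoter entry and 4 of them (Ccno, Mcidas, Dynlrb2 and Fam183b) held GTTGCC on either strand, against 10.3% of all promoters of that length. This motif too was chosen after the sequences were seen. The factor genes Rfx2 (2.98 and 4.05 FPKM) and Rfx3 (2.62 and 2.33) differed by less than 2-fold.

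Of 14 neuroendocrine genes, 4 were kept and none was called. Uchl1, also a neuronal gene, had 33.5 and 43.2 FPKM, Ddc, of amine synthesis, 4.37 and 5.01, and the peptide gene Calca 0.560 and 0.330. Genes that every epithelial cell expresses shared 1 direction: all 23 kept members were above 0 in difference, 9 of them at least 2-fold higher, with a median of 0.79. The adhesion genes Epcam and Cdh1 had 84.1 and 113 FPKM (0.43) and 20.7 and 43.8 FPKM (1.05), the keratin gene Krt19 had 26.5 and 81.3 (1.58) and the claudin gene Cldn3 had 46.4 and 167 (1.82). Their sum was 752 FPKM at E14 and 1431 at E17, a ratio of 1.90, against 15.3 for the type 2 list and 2.98 for the type 1 list. The part that a larger share of epithelium has in the alveolar and airway differences was not tested.

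**Figure D2:**
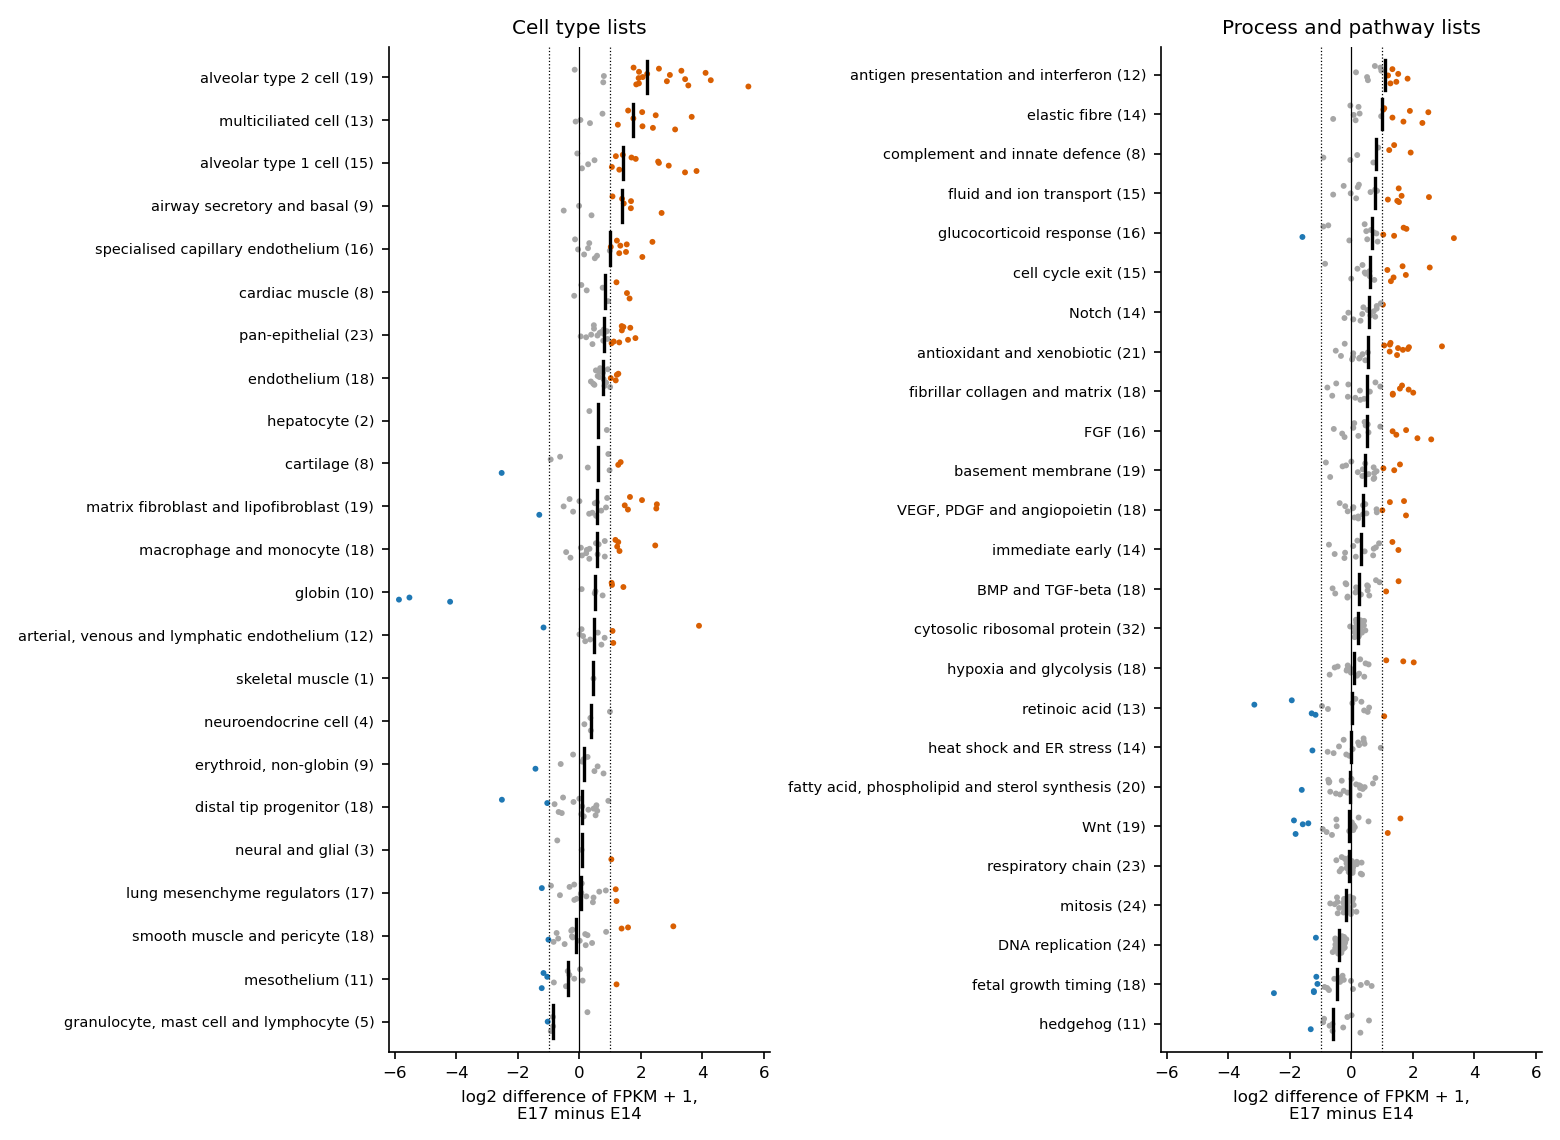
Each point is a kept member of a gene list, placed by its log2 difference of FPKM + 1 between E17 and E14, with the number of kept members after the list name. Black bars are list medians, dotted lines 2-fold, orange points at least 2-fold higher and blue points at least 2-fold lower. Alveolar type 2 (median 2.2) and multiciliated genes (1.76) lie highest among the cell types, and hedgehog genes (-0.61) lowest among the processes.

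In the mesenchyme, matrix genes differed more than the regulators of its identity. Of 17 kept regulator genes, 2 were higher and 1 lower, with a median of 0.06. Tbx4 (63.2 and 86.1 FPKM), Foxf1 (103 and 91.3), Tbx5 (36.2 and 33.9) and Fgf10 (11.4 and 13.5) stayed within 2-fold. Tcf21, a factor of the lung fibroblast lineage, had 78.8 and 183 FPKM (1.21), and Wnt5a had 4.83 and 12.2 (1.18), while Osr1, an early mesenchymal factor, had 23.7 and 9.60 (-1.22).

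The elastic fibre list had 7 of 14 kept members at least 2-fold higher and none lower, with a median of 1.00. Eln, which encodes the elastin core of the fibre, had 64.0 FPKM at E14 and 321 at E17 (2.31). Mfap4, a microfibril-associated protein gene, had 156 and 891 FPKM (2.50), more than Eln at both stages. The crosslinking enzyme gene Lox had 48.1 and 123 FPKM (1.33), Fbln5, which tethers the fibre, 2.37 and 9.88 (1.69), and the latent TGF-beta binding protein genes Ltbp2, Ltbp3 and Ltbp4 were higher by 1.04 to 1.90. The fibrillin genes did not follow, with Fbn1 at 8.89 and 9.87 FPKM and the fetal Fbn2 at 43.6 and 28.5 (-0.59).

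Among fibrillar collagen and matrix genes, 6 of 18 were higher and none lower (median 0.51). The collagen I chains stayed within 2-fold, at 273 and 334 FPKM for Col1a1 and 168 and 225 for Col1a2. The 3 chains of collagen VI were all higher: Col6a1 had 42.6 and 110 FPKM (1.34), Col6a2 61.9 and 159 (1.35) and Col6a3 5.86 and 26.6 (2.01). Postn (5.52 and 22.7 FPKM), Bgn (84.3 and 266) and Tnc (2.301 and 8.85) completed the 6. Of the fibroblast and lipofibroblast list, 6 of 19 kept members were higher and 1 lower. Aspn, a small leucine-rich proteoglycan gene, had 0.575 and 8.03 FPKM (2.52), Dpt, encoding dermatopontin, 0.264 and 4.19 (2.04), and Pparg, the fat cell regulator that lipofibroblasts share, 0.363 and 2.79 (1.48). Lum, a relative of Aspn, went the other way, at 13.6 and 4.92 FPKM (-1.30). The basement membrane list had 3 of 19 higher, among them Npnt (23.04 and 70.8 FPKM) and Lamb3 (4.095 and 12.4).

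Smooth muscle and pericyte genes parted. The contractile genes Acta2 (151 and 174 FPKM), Myh11 (15.8 and 11.0), Tagln (60.2 and 80.5) and Cnn1 (18.0 and 9.60) were within 2-fold, and Actg2, of visceral and airway muscle, was lower at 76.9 and 37.8 (-1.01). The 3 higher members of the 18 are known from pericytes, the mural cells of capillaries: Higd1b had 0.523 and 11.7 FPKM (3.06), and Abcc9 and Kcnj8, which encode subunits of 1 potassium channel, had 0.915 and 4.73 (1.58) and 2.89 and 9.06 (1.37). Of other pericyte genes in the list, Cspg4 had 1.49 and 3.55 FPKM (0.87), short of 2-fold, and Rgs5 had 13.7 and 11.2 (-0.26). Mesothelial genes, of the covering layer, had 1 of 11 higher and 3 lower (median -0.38). The lower members were the transcription factor gene Wt1 (5.91 and 1.956 FPKM, -1.23), the retinoic acid synthesis gene Aldh1a2 (29.1 and 12.4, -1.17) and the Wnt agonist gene Rspo1 (25.3 and 11.7, -1.05), and the higher one was Msln (0.579 and 2.65, 1.21).

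Every pan-endothelial gene was above 0. Of 18 members, all kept, 4 were at least 2-fold higher and none lower, and the differences ran from 0.37 to 1.27 (median 0.78). Cdh5 (37.3 and 66.4 FPKM), Kdr (13.6 and 19.4) and Tie1 (28.7 and 53.3) were within 2-fold. Pecam1 was just below it at 35.7 and 72.3 FPKM (1.00 after rounding), and Sox18 (23.6 and 58.3, 1.27), Sox17 (6.02 and 15.3, 1.22), Emcn (24.4 and 56.6, 1.18) and Egfl7 (55.5 and 114, 1.02) were past it. Of 16 kept genes of specialised capillary endothelium, 8 were higher and none lower, with a median of 1.01. The order of the 2 medians turned with a pseudocount of 5 (0.62 for capillary against 0.71 for pan-endothelial genes) and with a mean of at least 5 FPKM (0.78 against 0.79). Ace, encoding angiotensin-converting enzyme, had 0.909 and 8.91 FPKM (2.38), Gpihbp1, which anchors lipoprotein lipase to capillaries, 2.82 and 14.8 (2.05), and the adrenomedullin receptor gene Calcrl 3.797 and 13.0 (1.54). Ednrb was at 28.8 and 41.3 FPKM, Aplnr at 36.9 and 55.4, and Car4, a marker of the gas exchange capillary, at 0.458 and 0.395. Of 12 kept arterial, venous and lymphatic genes, 3 were higher and 1 lower (median 0.48). The arterial gene Gja4 had 8.36 and 19.1 FPKM (1.10). Lymphatic genes differed in direction: Lyve1 had 12.8 and 28.1 FPKM (1.08) and the chemokine gene Ccl21a 0.0197 and 14.1 (3.89), while Mmrn1 had 8.92 and 3.42 (-1.17) and Prox1, the factor that defines the lineage, was at 0.8002 and 0.257. Ccl21a has near-identical copies, and the division of fragments among them is uncertain.

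**Figure D3:**
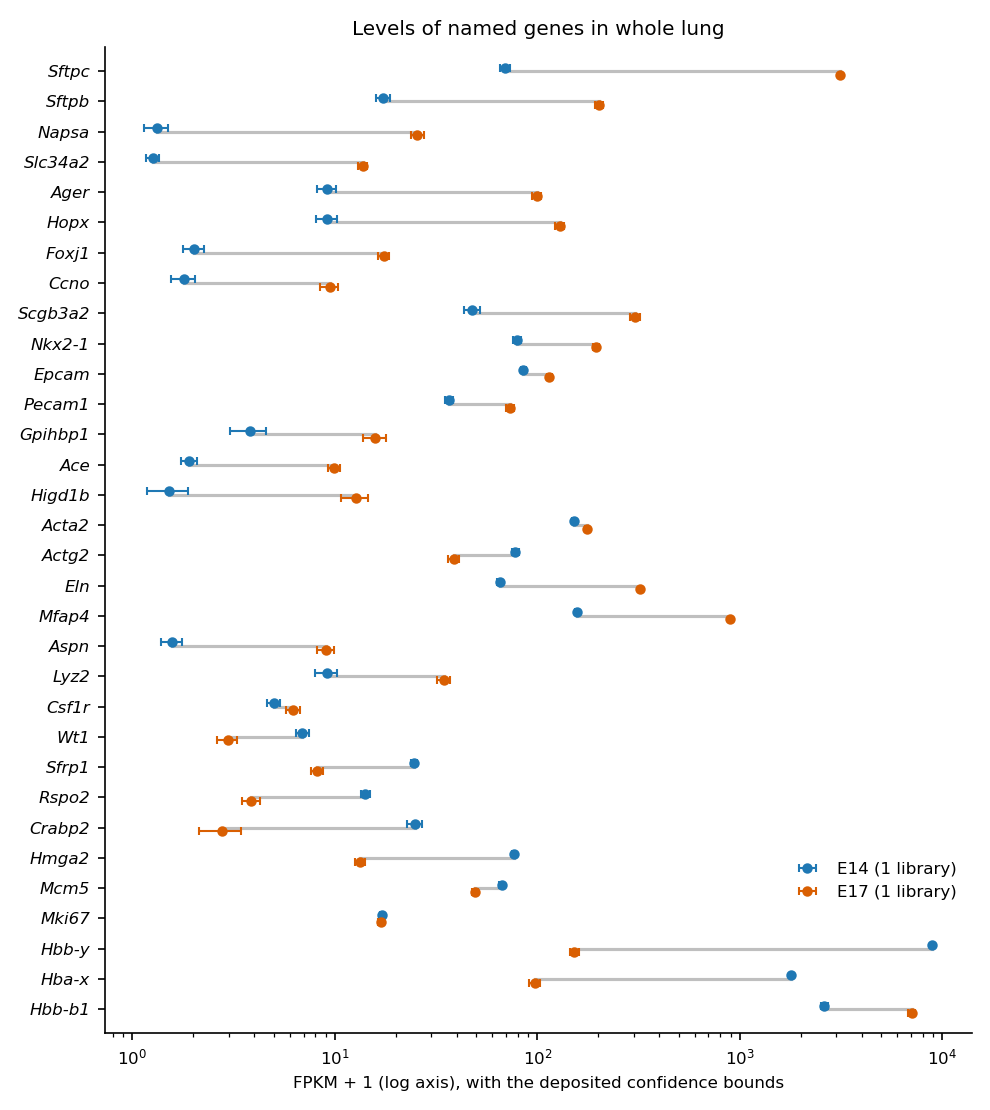
FPKM + 1 on a log axis at E14 (blue) and E17 (orange) for 32 named genes, 1 library each. Error bars are the deposited confidence bounds, which cover counting error within a library. Eln, Mfap4 and Foxj1 lie higher at E17, Hmga2 and Crabp2 lower, and Mki67 is nearly the same.

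The globins changed in composition with little change in sum. All globin records together had 25783 FPKM at E14 and 26468 at E17. That is 4.44% and 4.22% of the summed FPKM of records of at least 200 bases. Hbb-y, the embryonic beta-like chain (chromosome 7, 103851754 to 103853207), was the most abundant record of at least 200 bases at E14. It had 8905 FPKM at E14 and 151 at E17, a ratio of 58.9 and a log2 difference of -5.87. Hbb-bh1, the other embryonic beta-like chain, had 169 and 2.68 FPKM (-5.53), and Hba-x, the embryonic alpha-like chain, had 1789 and 95.9 (-4.21). The other beta-like records together had 4617 FPKM at E14 and 11199 at E17. Of these, Hbb-bt had 1920 and 3974 FPKM (1.05, or 0.94 with both libraries scaled to a common total). Embryonic chains made 66.3% of beta-like FPKM at E14 and 1.36% at E17, and 14.8% and 0.635% of alpha-like FPKM. The embryonic share was thus lower on the alpha side than on the beta side at both stages. Records named Hba-a1 and Hba-a2 lie over each other at 2 places, and Hbb-b1 and Hbb-bs cover the same stretch, so the division of fragments between these near-identical copies is uncertain and they are read within the sums.

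**Figure D4:**
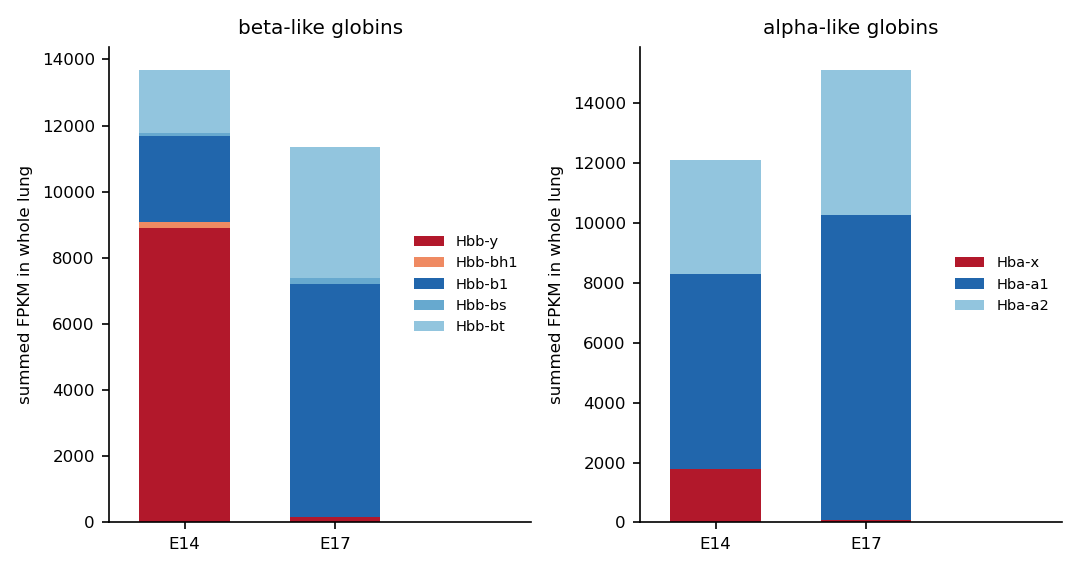
Stacked bars give the FPKM of beta-like (left) and alpha-like (right) globin records in whole lung at E14 and E17, with embryonic chains in red tones and adult chains in blue. Red makes 66.3% of the beta-like bar at E14 and 1.36% at E17.

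The upstream 250 bases of 2 embryonic and 2 adult globin genes are shown because they share short elements. Of these genes, Hbb-y and Hba-x were lower at E17 and Hbb-bt was higher. Hba-a1 is read only within the sum of the alpha-like records other than Hba-x, which was 10304 FPKM at E14 and 15019 at E17. Capitals mark CCACCC (bound by KLF factors), the sequence AGATAA and its variant TGATAA (both for GATA factors), the CCAAT box and the TATA box sequence TATAAA, on either strand. They come from RefSeq (GRCm38.p6) at chr7:103853208-103853457 and chr7:103813924-103814173 (minus strand) and chr11:32276350-32276599 and chr11:32283422-32283671 (plus strand).
Hbb-y: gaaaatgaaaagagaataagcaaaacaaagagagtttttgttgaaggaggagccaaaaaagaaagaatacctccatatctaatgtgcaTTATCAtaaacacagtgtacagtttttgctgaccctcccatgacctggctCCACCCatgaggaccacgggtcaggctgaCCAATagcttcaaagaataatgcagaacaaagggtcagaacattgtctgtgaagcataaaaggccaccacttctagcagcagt
Hbb-bt: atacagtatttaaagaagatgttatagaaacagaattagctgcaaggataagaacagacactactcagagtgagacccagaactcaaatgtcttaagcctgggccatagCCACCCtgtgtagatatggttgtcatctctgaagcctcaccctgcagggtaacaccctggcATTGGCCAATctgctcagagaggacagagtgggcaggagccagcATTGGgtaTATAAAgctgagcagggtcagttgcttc
Hba-x: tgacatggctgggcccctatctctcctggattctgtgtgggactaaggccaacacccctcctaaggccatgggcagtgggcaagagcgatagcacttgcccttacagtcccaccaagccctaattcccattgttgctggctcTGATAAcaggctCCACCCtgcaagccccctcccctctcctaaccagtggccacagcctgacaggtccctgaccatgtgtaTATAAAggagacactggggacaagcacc
Hba-a1: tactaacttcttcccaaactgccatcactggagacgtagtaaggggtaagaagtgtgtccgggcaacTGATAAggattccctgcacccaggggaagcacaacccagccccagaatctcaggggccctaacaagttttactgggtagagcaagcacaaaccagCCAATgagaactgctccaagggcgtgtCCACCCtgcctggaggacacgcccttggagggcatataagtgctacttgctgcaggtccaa
CCACCC was found in all 4, at 112, 141, 96 and 61 bases before the start in the order shown, and in 28.1% of all promoters of this length. CCAAT was found in Hbb-y, Hbb-bt and Hba-a1 (33.8% of promoters), a GATA sequence in Hbb-y, Hba-x and Hba-a1 (16.5%), and TATAAA in Hbb-bt and Hba-x (12.3%). None of these letters divided the embryonic pair from the adult pair.

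The rest of the red cell programme moved little. Of 9 kept erythroid genes other than globins none was higher and 1 was lower: the anion exchanger gene Slc4a1 had 12.03 and 3.84 FPKM (-1.43). Alas2, of haem synthesis, had 29.99 and 52.4 FPKM (0.79), and the regulators Klf1 and Gata1 were under 1 FPKM in both libraries. Macrophage and monocyte genes had 5 of 18 kept members higher and none lower (median 0.57), with 16 above 0 and 2 below it. Below 0 was the macrophage marker gene Emr1, at 1.93 and 1.40 FPKM (-0.29). The lineage receptor gene Csf1r had 3.98 and 5.23 FPKM, and C1qa, C1qb and C1qc, of complement, had 9.57 and 17.7, 12.7 and 13.5, and 11.98 and 18.6. The higher members were Lgals3 (0.588 and 7.78 FPKM, 2.47), Tyrobp (8.29 and 21.9, 1.30), Ctss (3.32 and 9.38, 1.26), Cd14 (0.900 and 3.46, 1.23) and Ly86 (2.40 and 6.66, 1.17). In TRAP, Lgals3, Cd14, Ly86 and Tyrobp were also at least 2-fold higher, by 2.80, 1.95, 1.77 and 1.52, and Ctss differed by 0.08. At E17 the TRAP levels of Lgals3 (11.1 FPKM) and Cd14 (10.3) were above those of whole lung. Those of Tyrobp (4.80), Ctss (0.488), Csf1r (0.247) and C1qa (0.795) were below. Which cells the RNA of Lgals3 and Cd14 came from was not tested. Of 5 kept granulocyte, mast cell and lymphocyte genes, 1 was at least 2-fold lower, with S100a8 at 12.9 and 6.30 FPKM (-0.93), S100a9 at 7.81 and 3.87 and Ngp at 2.52 and 0.721 (-1.03), and T and B cell genes were near 0 in both.

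Genes listed as markers of neighbouring tissues were read too, and the source of their RNA was not tested. Few members passed the filter among skeletal muscle (1 of 12), hepatocyte (2 of 16) and foregut and thymus (0 of 11) genes, and none was called. The liver gene Alb had 0.327 and 0.379 FPKM. The kept members were the muscle gene Mylpf (2.35 and 3.54 FPKM) and, of the hepatocyte list, Trf (5.76 and 11.6) and Rbp4 (5.66 and 7.34), which carry iron and retinol. Of the cardiac list, 8 of 17 were kept and 3 were higher, Myh7 (0.166 and 2.61 FPKM), Tnnt2 (1.71 and 6.93) and Tnnc1 (1.23 and 4.15), while Nppb and Myl2 were listed at 0 and Nppa had 0.297 and 0.136. The summed level of the list was 50.3 and 67.3 FPKM. In TRAP, Mylpf (5.65 and 10.5 FPKM) and Myh7 (0.724 and 4.95) were above whole lung at both stages. Tnnt2 (0.831 and 1.42), Trf (1.70 and 1.87) and Rbp4 (4.99 and 1.61) were below it at both, and Tnnc1 (1.52 and 1.46) at E17 only. Cartilage genes had 2 of 8 higher and 1 lower. Col2a1, the collagen of tracheal and bronchial cartilage, had 15.7 and 1.90 FPKM (-2.53). Col9a3 (2.06 and 6.36) and Matn4 (9.30 and 25.1) were higher, and Acan and Matn1 were at or near 0. Levels in TRAP were above whole lung at both stages for Col2a1 (24.4 and 4.83 FPKM), Col9a3 (11.96 and 25.97) and Matn4 (41.1 and 71.2). Acan and Matn1 were listed at 0 in TRAP. Which cells the RNA of Col2a1, Col9a3 and Matn4 came from was not tested.

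Genes of DNA replication were all lower by small amounts. Each of the 24 was below 0, only Ccne1 (40.6 and 17.7 FPKM, -1.16) was past 2-fold, and the median was -0.40. The replicative helicase genes Mcm2, Mcm3 and Mcm5 had 55.4 and 40.8, 61.8 and 49.1, and 65.6 and 48.0 FPKM. Mitosis genes were lower by less, with none of 24 past 2-fold and a median of -0.17, and Mki67 had 16.1 and 15.9 FPKM. Against this, 6 of 15 genes of cell cycle exit were higher and none lower (median 0.59). These were Gadd45b (3.87 and 27.5 FPKM, 2.55), Gadd45g (8.88 and 30.3), the inhibitor genes Cdkn2b (0.211 and 3.13), Cdkn2c (5.44 and 15.7) and Cdkn1a (3.03 and 8.83), and Btg2 (16.8 and 39.0). Cdkn1c was high and level, at 310 and 309 FPKM.

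Genes whose level falls with fetal age in many tissues had 5 of 18 kept members lower and none higher (median -0.46). Beside Hmga2, these were the RNA-binding protein genes Igf2bp1 (16.4 and 6.44 FPKM, -1.22) and Igf2bp2 (58.7 and 24.6, -1.22) and the imprinted genes Zim1 (4.34 and 1.42) and Peg3 (31.4 and 14.1). Lin28a and Lin28b, which block the let-7 microRNAs, were already low at 0.145 and 0.729 FPKM at E14. The growth factor gene Igf2 stayed high (682 and 528 FPKM), as did H19 (1357 and 1928).

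Of the signalling pathways, hedgehog genes had the lowest median (-0.61, 1 of 11 lower). The ligand gene Shh was level, whereas its targets Ptch1 (42.4 and 27.4 FPKM) and Gli1 (30.3 and 18.2) were lower by less than 2-fold. Hhip, also a target, went the other way with the highest difference of the list (0.57). Of the 11 members, 8 were below 0 and 3 above it. In the Wnt list, 4 of 19 kept members were lower and 2 higher. Lower were the agonist Rspo2 (13.1 and 2.86 FPKM, -1.87), the ligand Wnt2b (9.26 and 1.91, -1.82) and the secreted antagonists Sfrp1 (23.5 and 7.18, -1.58) and Sfrp2 (82.6 and 30.6, -1.40). Higher were Wnt5a and the antagonist Wif1 (0.963 and 4.93, 1.59), while the target Axin2 was level at 13.1 and 13.7. FGF genes had 5 of 16 higher and none lower: the ligands Fgf1 (1.24 and 12.5 FPKM, 2.60), Fgf7 (0.270 and 4.62, 2.15) and Fgf18 (5.35 and 16.5, 1.46) and the receptors Fgfr4 (5.22 and 20.3, 1.78) and Fgfr3 (8.91 and 24.1, 1.34). Fgf10, the ligand of branching, was within 2-fold, as given above.

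Retinoic acid genes had 4 of 13 kept members lower and 1 higher. Crabp2, which carries retinoic acid to its receptor, had 23.8 and 1.78 FPKM (-3.16), the vitamin A uptake receptor gene Stra6 4.48 and 0.427 (-1.94), and the synthesis enzyme genes Rdh10 and Aldh1a2 18.7 and 7.06 (-1.29) and 29.1 and 12.4. The other synthesis gene Aldh1a1 was higher (4.56 and 10.6 FPKM, 1.07). The BMP and TGF-beta and the Notch lists had few members called higher, though their shares were above the 4.80% of all records. For BMP and TGF-beta, 2 of 18 were higher, the endothelial receptor Acvrl1 (12.3 and 37.4 FPKM) and the target Id1 (59.1 and 130). Notch had 1 of 14 higher (Nrarp, 9.69 and 20.7), and the VEGF and PDGF list 4 of 18, led by Figf, which encodes VEGF-D (11.7 and 42.4 FPKM, 1.78), and the hypoxia-inducible factor gene Epas1 (5.65 and 20.8, 1.71).

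Glucocorticoids mature the lung before birth, and 2 enzymes set their level within a tissue. Hsd11b1, which makes the active hormone, had 0.302 and 12.1 FPKM (3.33), while Hsd11b2, which inactivates it, had 10.7 and 2.86 (-1.59). The receptor gene Nr3c1 had 10.1 and 19.04 FPKM (0.85). Of 16 kept members of the response list, 5 were higher, Hsd11b1 among them, and 1 was lower, which was Hsd11b2. Mt1 (24.6 and 87.4 FPKM), Mt2 (6.36 and 22.9) and Per1 (4.80 and 14.2) were higher, whereas Fkbp5 (21.0 and 20.0) and Tsc22d3 (25.8 and 37.3) were within 2-fold. Lipid synthesis genes had none of 20 higher and 1 lower, with Elovl6 at 17.4 and 4.995 FPKM (-1.62), Fasn at 24.0 and 18.4 and Srebf1 at 18.4 and 22.2. Thus the surfactant protein genes and the general lipid synthesis genes did not move together.

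Fluid transport genes had 6 of 15 kept members higher and none lower. The 3 subunit genes of the epithelial sodium channel, which clears lung fluid at birth, were still low but higher at E17: Scnn1a had 0.723 and 4.03 FPKM, Scnn1b 0.293 and 2.63, and Scnn1g 1.23 and 4.07. Atp1b1, a sodium pump subunit gene, had 8.39 and 53.0 FPKM (2.52), while Cftr, the chloride channel of fetal fluid secretion, had 2.10 and 2.05. In host defence, 6 of 12 kept antigen presentation and interferon genes were higher and none lower (median 1.08), led by Cd74 (1.59 and 8.19 FPKM, 1.83), with H2-K1 at 6.06 and 16.01 and H2-D1 at 21.2 and 60.0. Complement and innate defence genes had 3 of 8 kept members higher, which were Lyz2, Wfdc2 (90.9 and 240 FPKM, 1.39) and Cd14. Oxidative defence and xenobiotic genes parted: Cat, Gpx1 and Gpx3 were within 2-fold (26.6 and 36.6, 268 and 272, and 51.3 and 61.3 FPKM), but Fmo2 (0.274 and 8.81, 2.95), Fmo1 (0.269 and 3.64, 1.87), Cyp2s1 (0.839 and 5.57, 1.84) and Cyp2f2 were among 10 of 21 that were higher.

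Several of the most changed genes belong to no list above. G0s2, an inhibitor of triglyceride breakdown, had 8.58 FPKM at E14 and 164 at E17 (4.1). Ndufa4l2, a mitochondrial gene induced by hypoxia, had 3.93 and 78.1 FPKM (4.0), beside the hypoxia targets Ankrd37 (4.35 and 20.8) and Egln3 (7.36 and 25.9), which with Car9 made 3 of 18 higher in the hypoxia and glycolysis list (median 0.09). Clic3, of the intracellular chloride channel family, had 1.04 and 49.7 FPKM (4.64), and Tmem213 had 0.832 and 72.6 (5.33). Among lower genes, Hsd3b6, a steroid dehydrogenase gene, had 20.2 and 0.626 FPKM (-3.70), the neurotrophin receptor gene Ngfr 8.01 and 0.985 (-2.18), Pcp4 5.04 and 0.384 (-2.12, or -0.90 with a pseudocount of 5) and the imprinted gene Peg10 31.0 and 6.46 (-2.10). In absolute terms, the actin-binding protein gene Tmsb4x gained 1885 FPKM (1383 to 3268) and Rpl28 gained 1176 (3504 to 4680), while Mif (1406 and 917), the growth factor gene Mdk (1246 and 809) and the chaperone gene Hspa8 (1144 and 765) lost the most after the globins. Ribosomal protein genes had a median of 0.23 and respiratory chain genes -0.08, with none of 32 and none of 23 past 2-fold.

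The Sox9-TRAP libraries of the same stages give a side by side reading, since they are separate libraries. Over the 12449 records, 536 (4.31%) were at least 2-fold higher and 204 (1.64%) lower at E17 in TRAP. Of the records higher in whole lung, 287 were higher in TRAP too, which is 48.1% of the whole lung records and 53.5% of the TRAP records. Of the lower ones, 50 were shared, 33.6% and 24.5%. Across the 12449 records the correlation of the 2 differences was 0.71 (Pearson, a description over genes, which are not replicates). The alveolar lists had similar medians in both, 2.2 in whole lung and 2.08 in TRAP for type 2 and 1.41 and 1.59 for type 1. Sftpc had 400 and 11835 FPKM in TRAP (4.88) and Ager 44.9 and 255 (2.48).

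Other lists did not. Multiciliated genes had a median of 1.76 in whole lung and 0.35 in TRAP, where Foxj1 had 2.25 and 4.60 FPKM and Ccno 0.7496 and 1.55. The airway list had 1.39 and -0.36, with Scgb3a2 at 91.5 and 106 FPKM in TRAP, and the elastic fibre list 1.00 and 0.12, with Eln at 30.9 and 24.1 FPKM and Mfap4 at 30.6 and 42.5. Pan-epithelial genes had 0.79 and 0.20. The capillary list had 1.01 and 0.44, with Ace at 1.13 and 0.858 FPKM in TRAP, and Hsd11b1 was at 0.937 and 1.06. Among records higher in whole lung, 148 differed by less than 0.5 on the log2 scale in TRAP. No test of the difference between the materials is possible with 1 library of each at each stage.

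**Figure D5:**
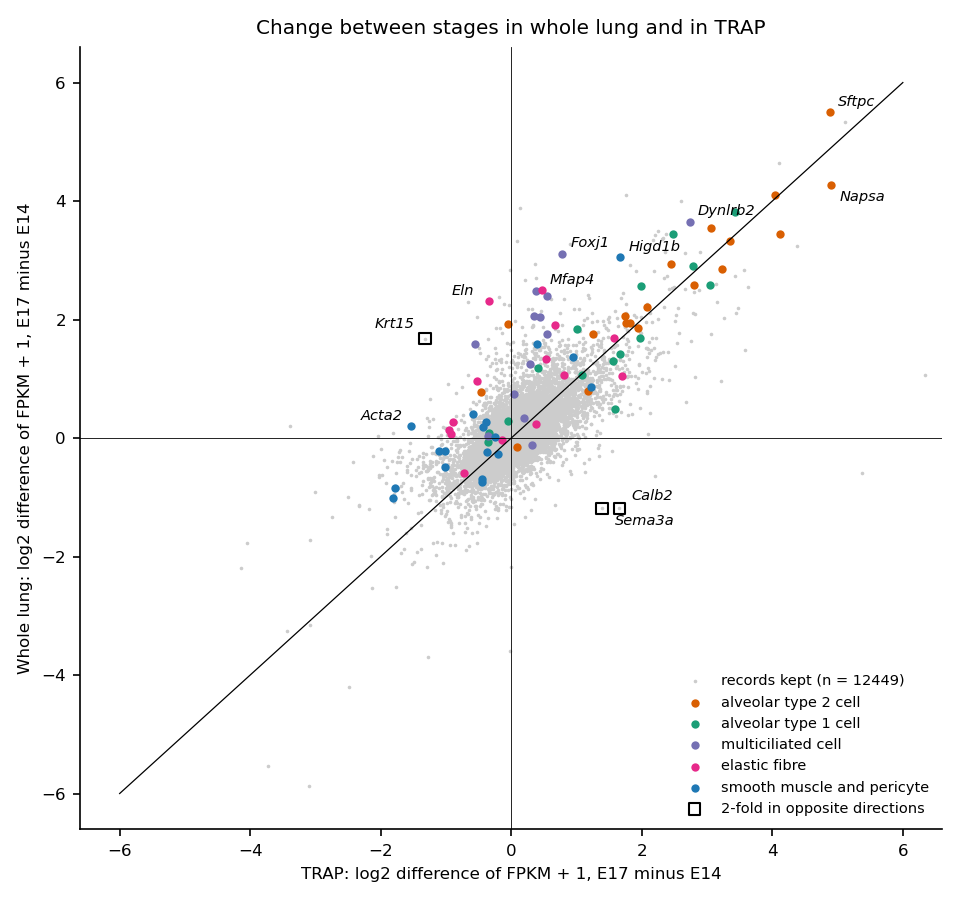
Each point is a kept record, with its log2 difference between E17 and E14 in TRAP across and in whole lung up, and the line marks equal differences. Alveolar genes lie along the line, while Foxj1, Eln and Mfap4 lie above it, at 3.11, 2.31 and 2.50 in whole lung. Squares mark the 3 records past 2-fold in opposite directions.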

How the data were processed

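RNA-seq values of 2 whole lung libraries, and of the TRAP libraries set beside them, were used as deposited. The authors deposited FPKM with confidence bounds for each record, per the file headers. The tools named, per the submitters' processing notes, are TopHat2 (2.0.14), Bowtie2 (2.2.3), Cufflinks (2.2.1) and Cuffnorm, with the build mm10. The scaling that Cuffnorm applied is not stated, and none was added here. Records were matched between files by identifier, position and start site group, and 1 was added to deposited starts. Fragments were computed from the bounds, with the distance to the upper bound read as 2 standard errors. Records averaging 1 FPKM or more and spanning 200 bases or more were kept, and log2(FPKM + 1) was compared at a threshold of 2-fold, in Python with pandas and numpy. No test was run, since each stage had 1 library. The fold rule was tested on simulated data.

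The members and gene lists were chosen with earlier results of these data known, so list counts are descriptions set beside those of all records. Named genes were the 10 highest and 10 lowest differences among records with at least 5 FPKM in 1 library, the 5 largest gains and losses in FPKM, the first 3 and up to 4 most changed members of each list (further members where a list is described in full), Sox9 and Nkx2-1. Predicted models, Rik names, pseudogenes and symbols on several records were passed over, except as list members. Promoters were matched by symbol and by a start within 50 bases, which gave an entry for 8313 kept records (66.8%), and the motifs were chosen after the sequences were seen. Which further list members to name was also chosen with their values known. A few list members are counted but not reported here by name. Alternatives covered the pseudocount, the filter, short records, scaling, repeated symbols and the deposited bounds.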

Additional observations from a re-analysis of the deposited data

Results flagged for a closer look

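Only 3 records were at least 2-fold apart between E14 and E17 in opposite directions in whole lung and in TRAP. They were chosen after their values were seen, each value is 1 library, and the difference between the materials was not tested. Krt15, a keratin gene of basal and early airway cells, was higher at E17 in whole lung, at 1.75 and 7.80 FPKM (log2 difference 1.68), and lower in TRAP, at 7.33 and 2.33 (-1.32). Sema3a, a secreted guidance molecule gene, was lower in whole lung, at 15.9 and 6.44 FPKM (-1.18), and higher in TRAP, at 1.94 and 6.70 (1.39). Calb2, encoding the calcium-binding protein calretinin, was likewise lower in whole lung, at 16.96 and 6.89 FPKM (-1.19), and higher in TRAP, at 1.65 and 7.35 (1.66). The deposited bounds of the whole lung stages did not overlap for any of the 3.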

How the results depend on the processing

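The counts of 597 higher and 149 lower records depended on how low levels were treated. With a pseudocount of 5 FPKM they were 249 and 40, and with a mean of at least 5 FPKM 367 and 78. With a pseudocount of 0.1 the lower count was 284, and the higher count of 886 was within 1.5 times. The other 7 alternatives kept both counts within 1.5 times. Scaling both libraries to a common total shifted the FPKM of E17 against E14 by -0.11 on the log2 scale, before 1 was added. Differences of genes with a low level at a stage moved less (Napsa from 4.27 to 4.21), and the counts were 514 and 201. Of 50 list medians, 7 were at least 1 in size; those of the alveolar lists stayed so under the 7 alternatives run on medians and 5 did not: airway (0.92 with a pseudocount of 5, 0.14 with no filter), multiciliated (0.62 and 0.76), antigen presentation and interferon (0.65 and 0.76), and capillary and elastic fibre, which lie at the threshold (0.62 and 0.99, and 0.82 and 0.97). No called median or named gene changed sign, but 2 of 24 named genes past 2-fold fell under it in a setting, Hbb-bt (0.94 with a common total) and Pcp4 (-0.90 with a pseudocount of 5). No paired analysis was possible because each whole lung stage has 1 library with no number. For the same reason no library could be left out. Depth limits genes near 0 at E14, such as Mcidas, whose deposited lower bound was 0.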

Other observations

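Hox genes, which mark position along the body axis, were looked at after their values were seen. Of 39 records, 15 were kept, and 14 of these were lower at E17, 3 of them at least 2-fold, with a median of -0.65 in whole lung and -0.50 in TRAP. Hoxb6 had 38.4 and 14.4 FPKM, Hoxa4 21.5 and 10.3, and Hoxc4 2.29 and 0.612. Hoxa5, the Hox gene best known from the lung, had 104 and 83.2 FPKM (-0.32), and Hoxa7 was the exception above 0 (0.12). Hoxa13, Hoxb13 and Hoxc13 were listed at 0 in both libraries, and Hoxd13 had 0.167 and 0.0192 FPKM.

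Members of the S100a family of calcium-binding proteins, also chosen after their values were seen, had 8 of 10 kept records at least 2-fold higher at E17, with a median of 1.35 in whole lung and 1.62 in TRAP. S100a14 had 0.5004 and 13.2 FPKM, S100a6 11.8 and 48.9, S100a11 255 and 637, and S100a10 71.4 and 165. The 2 others, the granulocyte genes S100a8 and S100a9, were lower, as given in the report.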
